A study of Rattus norvegicus with 56 samples.

Results

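Collagen genes were followed across primary hippocampal cultures that had received magnetic stimulation or sham handling. A gene was taken as a collagen gene when its rat symbol had the form Col, number, a, number, and it was measured through the array probe whose RefSeq accession belonged to it. Of 44 such genes in the RefSeq gene table, 23 had a matched probe (31 probes), and the brightest probe stood for each gene. The other 21, among them Col4a2, Col5a2, Col6a1, Col6a3 and Col12a1, were not analysed here. Of the 23 genes, 22 were bright enough to be tested. Col4a4, a chain of basement membrane collagen, was well above background on 1 array of 55 and was left out of the tests.

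Collagens are secreted triple helices of alpha chains, and they form most of the fibres of connective tissue. Fibrillar collagens such as types I and III are made mainly by fibroblasts, in the brain chiefly in the meninges and around vessels, whereas type IV is the network of basement membranes. Brain tissue itself holds little fibrillar collagen, and neurons and glia express mostly non-fibrillar chains.

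The cultures were made from hippocampi of E18 Sprague-Dawley rats, kept in Neurobasal medium with B27, and no genotype or transgene distinguished them. Plates received sham, 1Hz (a slow regular train) or iTBS (intermittent theta burst stimulation) from an inverted coil on which the plate was centred, with the coil moved away for sham, and were collected 0, 2, 8, 24 or 48 h later, and untreated cultures were collected at 0 h. These 16 groups held 2 to 4 arrays each, 55 in all, after leaving out the array of 1Hz at 2 h, replicate 2, whose spot grid the scanner software had marked as bad. Whether replicates came from separate animals or platings is not stated in the labels, so p-values measure the spread between these samples, which may be technical.

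Each sample description carries a number, and these numbers fall into 4 runs, called culture series here: A (numbers 1 to 18, 11 arrays), B (22 to 36, 12 arrays), C (37 to 54, 17 arrays) and D (1 to 15 after the letter D, 15 arrays). The labels do not say what a run was. Series D arrays lay on all 7 slides, whereas series A, B and C each lay on slides of their own, so series D could be set against another series within every slide. The 75th percentile of signal ranged from 1896 to 18416 over the arrays, with series medians between 3708 and 5470. Signals were therefore put on 1 scale as scaled log2 signal, centred so that each array averages 0, with 1 unit standing for a 2-fold difference on an array of median spread. All 10 neuron markers on the list used were well above background on every array, as were all 10 astrocyte and all 10 oligodendrocyte lineage markers, so the cultures labelled as neurons also held glial RNA.

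The collagen genes differed mainly by culture series. Type I and type III collagen, type VI chain Col6a2, Col18a1 and Col26a1 stood higher on every series D array than on any array of the other series, and type I and III were also higher in series C than in A and B. The culture series had an effect on 21 of the 22 genes (limma F test, Benjamini-Hochberg adjusted over all probes), against 75.4% of all probes tested, so a series effect as such was common on these arrays. Between single pairs of series, 10 genes differed for B against A (30.4% of all probes), 17 for C against A (42.9%), 18 for C against B (32.7%), 19 for D against A (41.7%), 17 for D against B (53%) and 20 for D against C (52.5%). A shared direction was less common. Series D was higher than each of A, B and C for 13 of 22 collagen genes, against 10.7% of all probes, and lower than each for 2, against 10% of all probes. With slide as a fixed block the first count was 8, against 4.35% of all probes, since Col2a1, Col6a5, Col7a1, Col13a1 and Col15a1 no longer passed. Col13a1 was bright enough to be tested only through series D, with 11 arrays well above background there and 1 in B. Its place among the 13 is therefore not independent of the filter. No overlap at all between series D and the other arrays was seen for 6 of 22 genes, against 0.594% of all probes. In these cultures fewer cells of a type and less RNA per cell cannot be told apart. The median difference over the 22 genes was 0.52 for series D minus A, 1.18 for D minus B and 0.56 for D minus C, where the median over all probes was 0.01, 0.02 and 0.04.

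To show what lies before the start of genes that moved in this way, promoter windows are printed for the genes of that set of 6 that have an entry in the RefSeq promoter table (Col1a2, Col18a1 and Col26a1) and for Col4a1, the 1 gene that did not pass the series test. An entry was there for 18 of the 23 genes, and not for Col1a1, Col2a1, Col3a1, Col6a2 or Col14a1. Capitals mark matches to the CCAAT box, the GC box GGGCGG or the TATA box TATAAA, each searched on both strands, and no printed matches overlap. Coordinates are those of GRCr8 and all 4 genes lie on the plus strand. The windows are chr4:33518307-33518406 for Col1a2 (the first 100 bases of the 250 before the annotated start, which hold both matches), chr20:11473395-11473644 for Col18a1, chr12:25429146-25429395 for Col26a1 and chr16:84885347-84885596 for Col4a1, each of these 3 being the 250 bases before the start.
Col1a2: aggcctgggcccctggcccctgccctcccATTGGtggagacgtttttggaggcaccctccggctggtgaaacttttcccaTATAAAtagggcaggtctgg
Col18a1: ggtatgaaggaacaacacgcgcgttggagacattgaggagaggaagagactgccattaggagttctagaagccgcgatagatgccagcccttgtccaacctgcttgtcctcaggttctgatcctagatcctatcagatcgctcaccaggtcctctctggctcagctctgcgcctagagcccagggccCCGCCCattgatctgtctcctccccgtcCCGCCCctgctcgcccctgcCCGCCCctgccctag
Col26a1: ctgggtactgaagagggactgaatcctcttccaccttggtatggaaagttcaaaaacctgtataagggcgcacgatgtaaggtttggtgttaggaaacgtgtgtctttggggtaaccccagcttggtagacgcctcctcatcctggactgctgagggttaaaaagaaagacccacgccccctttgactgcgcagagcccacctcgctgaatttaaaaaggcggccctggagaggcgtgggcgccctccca
Col4a1: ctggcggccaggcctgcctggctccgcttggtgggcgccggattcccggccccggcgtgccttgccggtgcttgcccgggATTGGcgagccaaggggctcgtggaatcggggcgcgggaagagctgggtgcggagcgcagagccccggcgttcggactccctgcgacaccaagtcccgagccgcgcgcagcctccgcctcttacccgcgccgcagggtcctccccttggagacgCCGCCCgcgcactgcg
The Col1a2 window held CCAAT on the other strand, 221 bases before the annotated start, and TATAAA 170 bases before it. Col18a1 held 3 GGGCGG boxes on the other strand, and Col4a1 held 1 CCAAT and 1 GGGCGG. Col26a1 held none of these letters in its window. Of all 33469 promoters in the table, 34.0% held CCAAT, 30.5% GGGCGG and 12.9% TATAAA in the 250 bases before the start. Of the 19 windows of collagen genes (Col6a5 has 2 entries), 6, 10 and 2 held them. The genes high in series D thus had no motif of the 3 in common, and such a match describes letters, not a bound site.

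**Figure D1:**
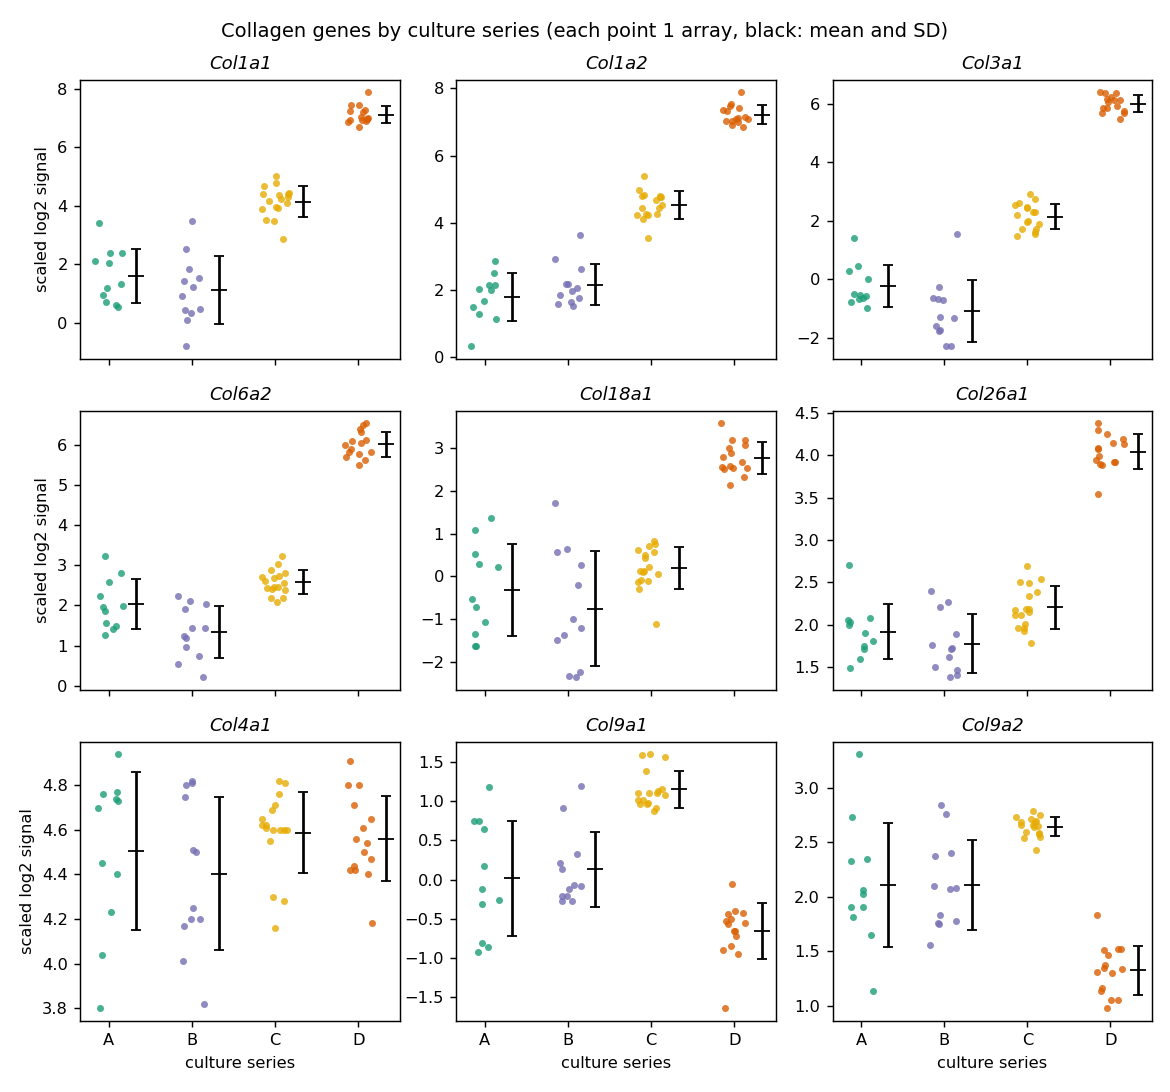
Scaled log2 signal (y axis) of 9 collagen genes by culture series (x axis). Each point is 1 array and the black marks are mean and SD. Col1a1, Col1a2, Col3a1, Col6a2, Col18a1 and Col26a1 show series D above every other array, Col4a1 shows 4 overlapping series, and Col9a1 and Col9a2 are lowest in series D.

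Among the fibrillar collagens, Col1a1, the major chain of type I collagen, ranged from 0.54 to 3.43 in series A (median 1.34), from -0.79 to 3.48 in B (median 1.08), from 2.86 to 5.03 in C (median 4.23) and from 6.70 to 7.87 in D (median 7.01). Series A and B overlapped throughout, series C overlapped only their highest arrays, and series D stood apart. The difference was 5.44 ± 0.27 (SE) for D minus A, 6.0 ± 0.25 for D minus B and 3.02 ± 0.23 for D minus C, with limma adjusted p of 3.87e-19, 1.58e-21 and 6.46e-14. Series C was higher than A by 2.42 ± 0.26 and than B by 2.98 ± 0.25. The second Col1a1 probe gave 4.81, 5.92 and 2.77 for the same 3 differences of series D.

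Col1a2, the partner chain of the type I helix, followed the same order. It ranged from 0.33 to 2.88 in A (median 2.01), 1.52 to 3.63 in B (median 2.02), 3.55 to 5.39 in C (median 4.54) and 6.85 to 7.88 in D (median 7.13). Series D exceeded A by 5.32 ± 0.19, B by 5.04 ± 0.18 and C by 2.68 ± 0.16, and series C exceeded A by 2.64 ± 0.18 with no overlap. Col3a1, the chain of type III collagen that accompanies type I in soft tissue, ranged from -0.98 to 1.41 in A (median -0.53), -2.30 to 1.53 in B (median -1.32), 1.49 to 2.91 in C (median 2.21) and 5.47 to 6.39 in D (median 6.05). It showed the widest gap of the 22 genes, 7.12 ± 0.25 for D minus B, 6.18 ± 0.27 for D minus A and 3.87 ± 0.23 for D minus C.

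Type I chains also moved together within a series. Over the arrays of 1 series, which differ in time and protocol, the levels of Col1a1 and Col1a2 had a Pearson r of 0.703 in A (n = 11, permutation p = 0.0155), 0.814 in B (n = 12, permutation p = 0.00135), 0.948 in C (n = 17, permutation p = 1e-05, the smallest the permutations can give) and 0.864 in D (n = 15, permutation p = 0.00011). Spearman's rho was 0.651, 0.748, 0.913 and 0.72 (permutation p = 0.0333, 0.00701, 1e-05 and 0.00308). Without the 2 arrays farthest from the median Col1a1 level, r was 0.524, 0.574, 0.885 and 0.713, so in A and B it leaned on those arrays. Adjusted over the 8 relations computed, the p of Pearson's r was 0.0248, 0.0036, 8e-05 and 0.00044, and that of rho was 0.0533, 0.0187, 8e-05 and 0.0123. Of the 8 chain pairs of known trimers that were listed, only this one and Col11a1 with Col11a2 had a probe for both chains. Col11a1 and Col11a2, chains of the cartilage fibril nucleator type XI, went opposite ways in series A (r = -0.715, rho = -0.753, adjusted permutation p = 0.0248 and 0.0197, r = -0.759 without the 2 farthest arrays). In B, C and D their r was 0.186, -0.27 and 0.474, rho 0.116, -0.261 and 0.529, and no adjusted permutation p passed.

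The remaining fibrillar chains showed no such gap. Col11a2 ranged from 1.37 to 3.24 in A, 1.31 to 2.52 in B, 2.63 to 3.63 in C and 2.26 to 3.54 in D, so that series C was the highest, 1.24 ± 0.15 above B with no overlap. The second Col11a2 probe was well above background on few arrays and is not used here. Col2a1, the cartilage fibril chain, was higher in D by 0.41 to 1.13. The regulators of fibril diameter Col5a1 and Col5a3 were not higher in D than in all of the others. Col5a3 was highest in A, with D minus A of -0.67 ± 0.22, and in series B its arrays spanned 3.89 to 6.98.

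Type IV collagen, tested through Col4a1 alone, showed no series difference past the test. Col4a1, which builds the basement membrane network, ranged from 3.80 to 4.94 in A (median 4.70), 3.82 to 4.82 in B (median 4.37), 4.16 to 4.82 in C (median 4.61) and 4.18 to 4.91 in D (median 4.54). All 4 series overlapped, and it was the 1 gene of 22 that did not pass the series test (limma adjusted p = 0.236). The 6 differences between pairs of series ran from -0.16 ± 0.10 (B minus A) to 0.19 ± 0.09 (C minus B), and D minus A, B and C was -0.01 ± 0.10, 0.14 ± 0.09 and -0.04 ± 0.08.

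Of the microfibrillar type VI chains, which link cells to fibrils, Col6a2 ranged from 1.27 to 3.23 in A (median 1.97), 0.21 to 2.23 in B (median 1.33), 2.09 to 3.23 in C (median 2.55) and 5.50 to 6.54 in D (median 6.0). Its lowest series D array was above the highest of the other 40 arrays. Series D exceeded A by 3.95 ± 0.17, B by 4.67 ± 0.15 and C by 3.42 ± 0.14, the last with a limma adjusted p of 5.93e-22, the smallest of the 22 genes for that pair. Both Col6a2 probes showed it. Col6a5 was higher in D by 0.42 to 0.73, with overlap.

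The multiplexins sit in basement membranes and release endostatin-like fragments. Col18a1 ranged from -1.64 to 1.36 in A, -2.36 to 1.72 in B, -1.11 to 0.83 in C and 2.14 to 3.58 in D. It was higher in D by 3.01 ± 0.33, 3.46 ± 0.31 and 2.65 ± 0.28 and varied most between arrays within B (SD 1.34, n = 12). Col15a1 ranged from 0.87 to 2.45 in A, 0.16 to 1.42 in B, 1.32 to 1.93 in C and 1.45 to 2.81 in D, with smaller differences of 0.51 to 1.26. Col26a1, a short collagen-like secreted protein, ranged from 1.49 to 2.70 in A, 1.38 to 2.40 in B, 1.78 to 2.69 in C and 3.54 to 4.38 in D, which put D higher by 2.13 ± 0.12, 2.25 ± 0.11 and 1.83 ± 0.10.

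**Figure D2:**
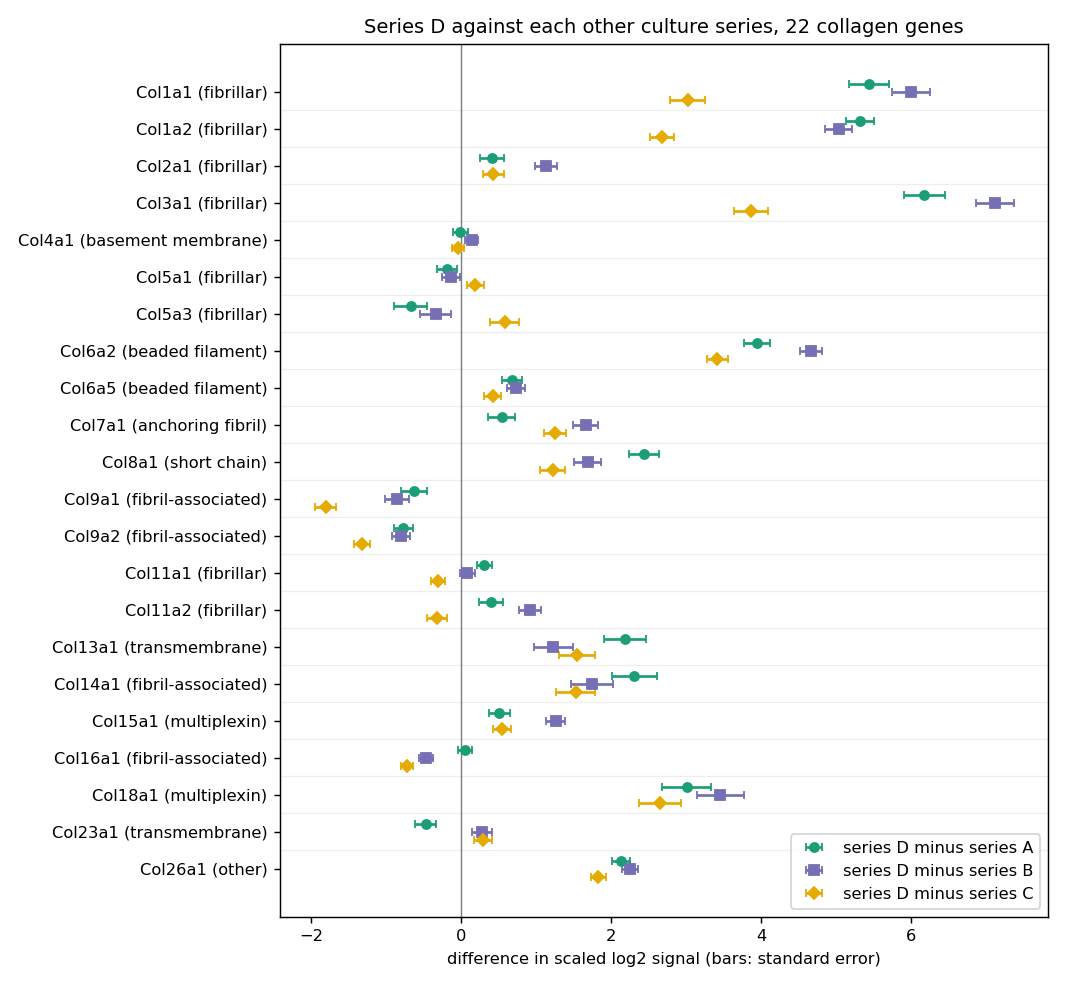
Difference of series D from series A, B and C in scaled log2 signal (x axis, bars are standard errors) for the 22 collagen genes tested (y axis, with the collagen class). Points right of 0 are higher in series D. Col1a1, Col1a2, Col3a1 and Col6a2 lie farthest right, and Col9a1 and Col9a2 lie left of 0 for all 3 pairs.

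Some chains of other collagen classes were also higher in series D. Col8a1, which forms hexagonal networks under endothelia, ranged from -2.96 to -0.91 in A, -2.06 to 0.22 in B, -1.72 to -0.24 in C and -0.50 to 1.07 in D, and D exceeded these by 2.44 ± 0.20, 1.69 ± 0.18 and 1.22 ± 0.17. Col7a1, the anchoring fibril of skin, ranged from -1.86 to 0.09 in A, -2.95 to -0.77 in B, -1.91 to -1.06 in C and -0.92 to 0.40 in D, with D higher by 0.54 ± 0.18, 1.66 ± 0.17 and 1.25 ± 0.15. Col14a1, which binds the surface of type I fibrils, was well above background on 14 of 15 series D arrays, on 4 of 17 in C, 3 of 12 in B and none of 11 in A, and was at least 1.76-fold higher in D than in A. The membrane collagen Col13a1 was well above background on 11 series D arrays and on none in A or C, and was at least 1.21-fold higher in D than in A and at least 1.26-fold higher than in C. These bounds set the brighter series against the lowest signal the arrays could tell from background. The other membrane collagen, Col23a1, ranged from -0.39 to 1.64 in A, -0.89 to 0.60 in B, -0.46 to 0.17 in C and -0.24 to 0.72 in D and was highest in A (D minus A -0.47 ± 0.14), although its dimmer probes gave 0.12 and 0.22 for that difference.

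Type IX collagen went the other way. Col9a1, a chain of this fibril-associated collagen that decorates cartilage fibrils, ranged from -0.93 to 1.18 in A, -0.27 to 1.19 in B, 0.88 to 1.60 in C and -1.64 to -0.06 in D, and the difference of D from A, B and C was -0.63 ± 0.17, -0.85 ± 0.16 and -1.81 ± 0.14. Its partner chain Col9a2 ranged from 1.14 to 3.31 in A, 1.56 to 2.84 in B, 2.43 to 2.79 in C and 0.98 to 1.83 in D, with D minus C of -1.32 ± 0.11. Both type IX chains were thus highest in C and lowest in D. The dimmer Col9a1 probe showed smaller differences of -0.33, -0.03 and -0.63. Col16a1, a fibril-associated collagen, ranged from 5.74 to 7.08 in A, 6.40 to 7.74 in B, 6.90 to 7.57 in C and 6.08 to 7.06 in D, highest in C, 0.77 ± 0.09 above A and 0.25 ± 0.09 above B.

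Series C was higher than both A and B for 11 of 22 collagen genes, against 10.1% of all probes. A full ladder, with D above C and C above both A and B, held for 6 of 22 (Col1a1, Col1a2, Col3a1, Col6a2, Col8a1 and Col26a1), against 1.57% of all probes. Since series D was on every slide, it was also compared within slides. Within each of the 7 slides, the mean of series D exceeded that of the other arrays with no overlap for Col1a1 (by 2.48 to 6.41), Col1a2 (2.34 to 5.58), Col3a1 (3.39 to 7.11), Col6a2 (3.40 to 4.96), Col8a1 (1.14 to 2.51), Col18a1 (2.17 to 4.12) and Col26a1 (1.37 to 2.71). Col14a1 also lay apart on 7 of 7 slides, but most arrays outside series D gave no signal well above background. Col9a1 and Col9a2 had a lower mean in series D on 7 of 7 slides. Among A, B and C, slide and series cannot be told apart except through series D.

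Markers of some other cell types moved with the series too. Over all probes 10.7% were higher in D than in each other series, and 10% were lower. Of the fibroblast list, 4 of 8 tested genes were higher in D than in each other series: Mgp (means 2.96, 2.05, -1.03 and 6.83 in A, B, C and D), Ogn (-1.95, -0.42, 0.05 and 1.78), Lum (0.47, -0.62, -0.91 and 2.00) and Igf2 (1.88, 1.73, 1.96 and 4.98), and Slc22a6 was lower. The summed level of that list, adding 2 to the power of the scaled log2 signal, ranged from 96.5 to 558 in D, against 39.6 to 141 in A, 25.3 to 84.8 in B and 23.1 to 41.7 in C. The sums of B and C overlapped. The brightest gene weighs most in this sum, which by mean was Mgp in D and Dcn in A, B and C. Dcn itself was highest in A (means 5.31, 4.52, 4.39 and 5.11). Foxc1 had its means in another order too, -1.49, -0.49, 0.05 and -0.27. Of the list Aldh1a2 was well above background nowhere and Foxc2 on 1 array. The mural cell sum was 6.83 to 23.6 in A, 11.7 to 31.5 in B, 25.6 to 32.4 in C and 12.2 to 21.6 in D, and 0 of 10 genes were higher and 2 lower in D. Its brightest gene Pdgfrb had means of 1.68, 2.78, 4.00 and 3.38, whereas Acta2 had 0.37, 0.28, -0.01 and 0.53.

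The oligodendrocyte lineage sum was 150 to 546 in D against 781 or more on every other array, with 6 of 10 genes lower, and the dividing cell sum was 25.6 to 86.0 against 126 or more, with 5 of 5 lower. Of the astrocyte genes 4 of 10 were lower and 1 higher, and of the neuron genes 2 of 10 were higher. Endothelial genes were higher in D for 2 of 7, microglia genes higher for 1 and lower for 1 of 8, and choroid plexus genes higher for 1 of 6. With so few genes tested, counts of 1 or 2 are near the 10.7% higher and 10% lower of all probes. The part of these cell types in the collagen differences was not tested.

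**Figure D3:**
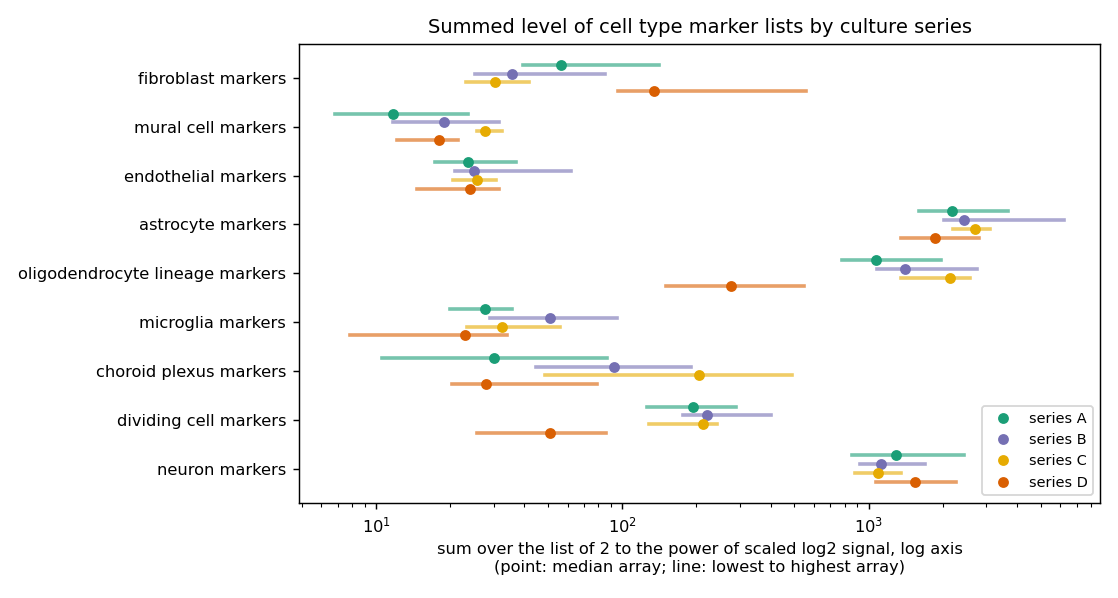
Summed level of each cell type marker list (x axis, log scale, sum of 2 to the power of scaled log2 signal) by culture series. Points are the median array and lines run from the lowest to the highest array. Series D is highest for fibroblast markers and lowest for oligodendrocyte lineage and dividing cell markers, where its line does not touch the others.

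The enzymes that make and cross-link collagen were in part higher in series D. Of the 20 tested genes of collagen synthesis and folding, 7 were higher in D than in each other series and 1 lower, against the 10.7% and 10% of all probes given above. The series test passed for 17 of 20, a share near the 75.4% of all probes. The widest ranges of series means were those of the prolyl hydroxylase subunit P4ha3 (-1.85 in B to -0.30 in D), the peptidyl-prolyl isomerase Fkbp10 (1.71 in B to 2.90 in D) and the lysyl hydroxylase Plod2 (2.24 in D to 3.36 in C). The first of these was not higher in D than in A beyond the test, and Plod2 was lowest in D. Of the 8 genes of procollagen processing and cross-linking, 5 were higher in D and none lower, led by the lysyl oxidase-like genes Loxl2 (-1.76 in B to 0.85 in D), Loxl1 (1.20 to 3.41) and Loxl4 (-1.95 in A and C to 0.12 in D).

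Of 6 collagen receptors, 4 were higher in D and 1 lower, where all probes gave 10.7% and 10%. The same shares apply to the lists that follow. The integrin subunit Itga10 was well above background on 9 of 15 arrays in D and on 2, 1 and 2 in A, B and C. The endocytic receptor Mrc2 had series means of 3.04, 3.05, 4.05 and 4.26, and the kinase receptor Ddr2 had 2.93, 3.37, 3.01 and 4.07. Of 9 genes of collagen breakdown and its inhibitors, 1 was higher, the protease Ctsk (0.97, 0.45, 1.01 and 2.62), while the inhibitors Timp1 (7.04, 7.15, 5.35 and 5.96) and Timp4 (4.15, 3.72, 2.71 and 2.60) were highest in A and B. Of 9 basement membrane partners of type IV collagen, 1 was higher and 1 lower, with the widest ranges for Lamc3 (-3.08 in B, with 3 of 12 arrays well above background, to -0.31 in D), Nid2 (0.05 in A to 1.84 in D) and Lama5 (3.35 in A to 4.46 in C). Of 11 genes of TGF-beta signalling, a known inducer of fibrillar collagen, 2 were higher. Series means of Ccn1 ran from 0.42 in C to 3.02 in B, and those of the ligand Tgfb1 from -2.77 in B to -0.51 in D.

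Time after stimulation, with sham, 1Hz and iTBS pooled, was called for 1 of 22 collagen genes (Col16a1, limma F test adjusted p = 0.0131), against 8.16% of all probes. With the culture series as a term in the fit it was called for 11 of 22, against 27% of all probes. Without the term, Col16a1 was also the only gene called at 24 h (3.84% of all probes) and at 48 h (10.8%) against 0 h. At 48 h against 0 h the fit with the term called 8 genes higher and 2 lower, against 13.6% and 13.4% of all probes, and at 24 h it called 3 higher, against 8.59%. The count of 11 was 3 without series B, 4 without D, and 5 without A or without C. Sham plates were collected at every time too. How long a plate had been in culture and how long ago it was handled cannot be told apart. Within each series the 0 h arrays shared no slide with the 24 h or 48 h arrays, so time and slide cannot be told apart there.

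Col16a1 had the smallest p with and without the series term. Its 0 h arrays, untreated cultures left out, ranged from 6.26 to 6.28 in A, 6.43 to 6.54 in B, 6.99 to 7.21 in C and 6.16 to 6.37 in D. At 24 h it was 7.04 in A (1 array), 7.20 to 7.46 in B, 7.49 to 7.57 in C and 6.99 to 7.06 in D, and at 48 h 6.87 to 7.08, 7.46 to 7.74, 7.26 to 7.42 and 6.78 to 7.04. In each of the 4 series every 24 h and 48 h array lay above every 0 h array. Those later arrays were on other slides than the 0 h arrays of their series. Within a series, slide and the rise from 0 h therefore cannot be told apart. In series A, slide 2 also held earlier arrays, at 6.21 (iTBS at 2 h) and 6.03 (1Hz at 8 h). The 24 h array (7.04) and the 48 h arrays (6.87 to 7.08) of series A were on that slide too. Times within 1 slide and series were not tested. In sham alone the mean was 6.52 ± 0.34 (SD, n = 4) at 0 h, 7.36 ± 0.27 (n = 3) at 24 h and 7.08 ± 0.16 (n = 3) at 48 h, so the later sham plates were higher as well. The rise was 0.69 ± 0.20 at 24 h and 0.60 ± 0.19 at 48 h without the series term, and 0.67 ± 0.10 and 0.66 ± 0.09 with it (limma adjusted p = 1.05e-05 and 1.98e-06). With slide as a fixed block and no series term, the rise at 48 h was 0.35. The time test then no longer passed (limma adjusted p = 0.121), nor did it with all 56 arrays (limma adjusted p = 0.0902). Every slide held series D beside another series, so series differences stayed in the slide fit. A time fit with both slide and series was not run. With the series term the rise at 48 h was 0.82 ± 0.17 for Col6a2, 0.54 ± 0.17 for Col9a1 and 0.50 ± 0.13 for Col9a2, the next 3 genes by p. Col6a2 was higher at 48 h than at 0 h in 4 of 4 series, by 0.56 to 1.58, and Col9a2 in 3 of 4, the exception being series C, where the change was -0.15. Type I collagen went the other way. Col1a1 dropped by 0.92 ± 0.28 in that fit and its mean was lower at 48 h in 4 of 4 series, with changes of -2.20 to -0.10. The Col1a2 mean was also lower at 48 h in 4 of 4 series, with changes of -1.34 to -0.03. Its time test with the series term did not pass (limma F test adjusted p = 0.0861). The membrane collagen Col23a1 dropped by 0.47 ± 0.14 with that term. Without the series term, the genes next to Col16a1 by p were Col5a1, Col4a1 and Col5a3, none past the threshold (adjusted p = 0.126, 0.168 and 0.244).

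**Figure D4:**
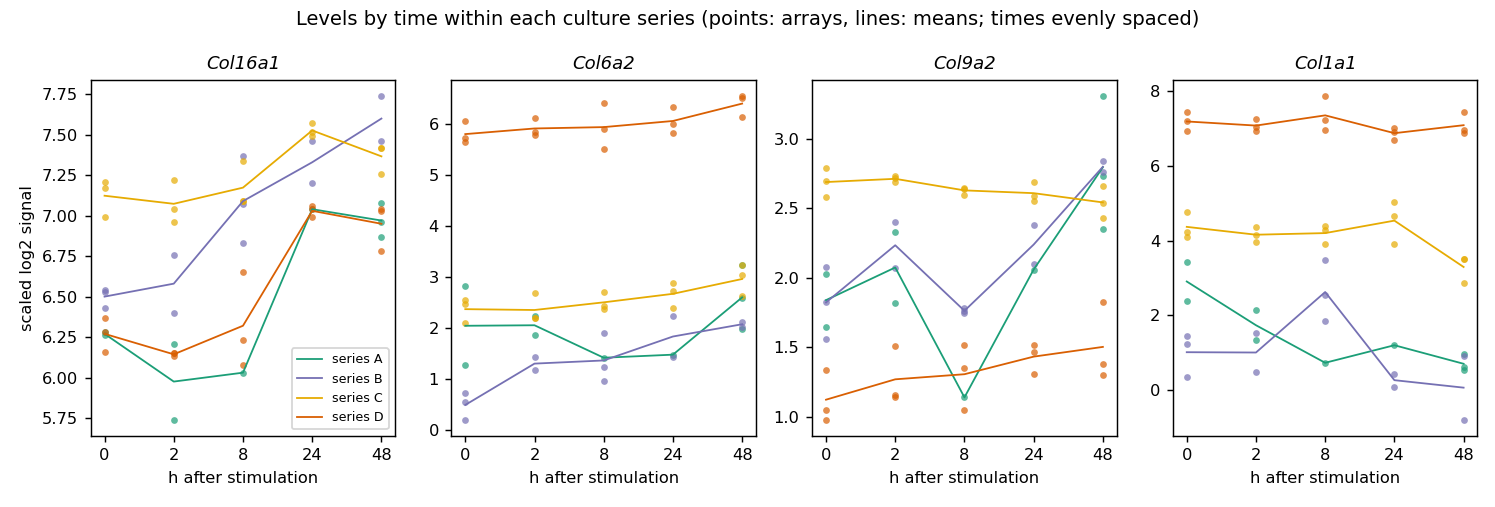
Scaled log2 signal (y axis) of Col16a1, Col6a2, Col9a2 and Col1a1 by time after stimulation (x axis, evenly spaced), coloured by culture series, without untreated cultures. Points are arrays and lines join series means. Col16a1 is higher at 24 h and 48 h in all 4 series, and series D stands above the others at every time for Col1a1 and Col6a2.

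No collagen gene passed the test between a stimulation protocol and sham. In the 10 comparisons of 1Hz or iTBS with sham at the same time, limma called 0 of 22 genes in each, against 0 to 0.0056% of all probes. At an unadjusted p under 0.05 there was 1 of 220 gene tests, against 0.552 to 3.94% of all probes, and 5 of 220 with the series as a term, against 1.01 to 9.18%. The median difference of the 22 genes ran from -0.34 (iTBS at 0 h) to 0.23 (1Hz at 2 h). On simulated data with these arrays, 59% of probes changed 4-fold (2 on the log2 scale) and 25% of those changed 2-fold were called in such a comparison of iTBS at 48 h, and 75% and 51% with the series as a term, so many 2-fold changes would have been missed in that comparison. No other protocol comparison was simulated.

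The smallest p of the 220 belonged to Col4a1 at 48 h after iTBS. Its sham arrays were 4.76, 4.16 and 4.71 (series A, C and D) and its iTBS arrays 3.80, 3.82, 4.30 and 4.18 (A, B, C and D). The groups overlapped, and all 4 iTBS arrays lay below the sham mean of 4.54. The difference was -0.52 ± 0.18 (limma adjusted p = 1), and -0.48 ± 0.17 with the series as a term (adjusted p = 0.913). In the other comparisons the gene with the smallest p was Col2a1 for iTBS at 0, 2 and 8 h, Col6a5 for iTBS at 24 h, Col23a1 for 1Hz at 0, 24 and 48 h, Col1a2 for 1Hz at 2 h and Col8a1 for 1Hz at 8 h, all with an adjusted p of 1.

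Series were unevenly spread over some groups. At 2 h the 1Hz group held only 1 array of series C and 1 of D, with Col1a2 at 4.81 and 7.16, whereas sham held A, B, C and D, at 1.14, 2.06, 4.44 and 6.99. The widest difference of any collagen gene from sham, 2.56 ± 2.33 for Col1a1 at that time, came with unequal series, and with the series as a term the 22 genes ran from -0.48 to 0.45 there. For Col8a1 at 8 h, the 1Hz arrays were -2.11, -0.59, -1.72 and 0.26 in A, B, C and D and the sham arrays 0.22, -0.28 and 1.07 in B, C and D, so that 1Hz was the lower in each of the 3 shared series. The fit with the series as a term gave -1.01 ± 0.36 (adjusted p = 1).

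Averaged over times, no collagen gene passed the test between either protocol and sham (0 of 22 for each, against 0% of all probes, and 0 of 44 at an unadjusted p under 0.05). The smallest p was that of Col9a1 for 1Hz (0.29 ± 0.31) and of Col14a1 for iTBS (-0.31 ± 0.40). No gene passed between iTBS and 1Hz either (F test over the 5 times, 0 of 22, against 0.0028% of all probes). Of 110 single differences, 1 had an unadjusted p under 0.05 (0.835 to 3.35% of all probes), and 7 with the series as a term (1.08 to 8.38%). Of these 7, 4 fell at 8 h (2.07% of all probes), where 21 of 22 genes were higher after iTBS than after 1Hz. The median of the 22 genes there was 0.33, against 0.00 over all probes, and none passed after adjustment. Between untreated cultures and sham at 0 h none passed (0 of 22, against 0.0028%, and 0 at an unadjusted p under 0.05). The gene with the smallest p there, Col14a1, was not well above background on any untreated array (-4.76, -4.90, -3.74 and -4.78) nor on 2 of the 4 sham arrays. Genes of collagen synthesis, cross-linking, receptors, breakdown, basement membranes and TGF-beta signalling likewise gave 0 calls in the protocol comparisons.

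**Figure D5:**
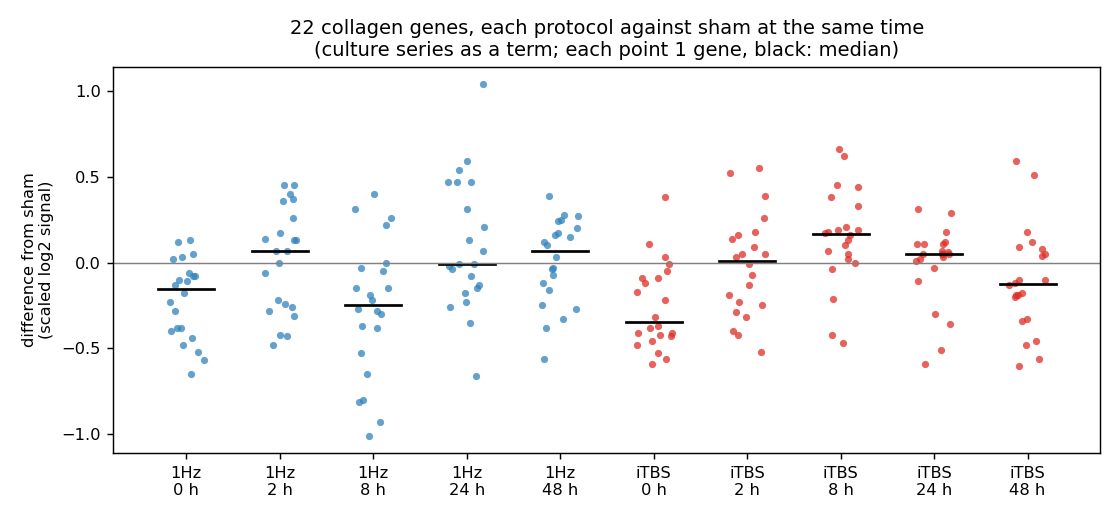
Difference from sham at the same time (y axis, scaled log2 signal, culture series as a term) for the 22 collagen genes, 1 point a gene, in 5 comparisons of 1Hz and 5 of iTBS (x axis). Black bars are medians. Most points lie within 0.5 of 0, and none passed the threshold.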

How the data were processed

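Total RNA of each culture was labelled with Cy3 and hybridised to 1-colour Agilent rat arrays (62976 spots). The authors extracted intensity values with Feature Extraction 12.0.3.1, which subtracts background within the array, and per the methods they then made a score per probe. This deposited score is the z-score of log10 signal within the array, computed by the authors. Replicates were not pooled. Here log2 of the processed intensity was averaged over spots of a probe without outlier flags, turned to a z-score within each array and multiplied by the median SD (4.06). Of 45178 probes, 35688 were well above background on at least 3 of 55 arrays and were tested. Probe to gene links came from the RefSeq accessions of the array. limma 3.58.1 in R 4.3.3 was fitted over all probes, with Benjamini-Hochberg adjustment and a threshold of 0.05: group means for protocols and times, with series as a term beside it, and series plus group for the culture series. The number of arrays limits precision. Named genes were those with the widest range of series means in each class (up to 4), the 4 smallest p for time, the smallest p for each protocol comparison, and up to 3 genes a list, of which 1 is not reported here. Members and lists were chosen with earlier results of these data known. The fits were tested on simulated data, where 73% of probes shifted 2-fold and 99% shifted 4-fold in series D were recovered among 35688. In that simulation only 200 probes changed and series A, B and C did not differ, unlike in the data. Mean spot signals were not in the files, so normexp used median signals.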

Additional observations from a re-analysis of the deposited data

Results flagged for a closer look

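In 5 of 120 groups of 4 arrays checked for 15 collagen genes, 1 array lay far from the other 3. Chance gives about 1 in 20, so this number is no more than chance gives, and the arrays of most groups came from different culture series. Col23a1 was at 1.64 among sham at 2 h and at 1.42 among iTBS at 2 h, and Col5a1 was at 5.48 among iTBS at 0 h, each on the series A array. Col9a1 was at -0.42 among 1Hz at 48 h, on the series D array. Col14a1 was at -3.74 among untreated cultures at 0 h, where none of the 4 arrays was well above background.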

How the results depend on the processing

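The count of collagen genes with a series effect (21) ran from 18 to 22 over 16 settings and was 21 without each array in turn. Series D was higher than each other series for 13 genes, for 8 with slide as a fixed block, and for 12 to 13 without each array in turn. The 6 genes without overlap stayed at 6 in the other settings and were 6 to 7 without each array in turn. Time was called for 1 gene, for 0 with all 56 arrays and for 0 with slide as a fixed block and no series term. Col16a1 had a limma adjusted p of 0.0902 and 0.121 in these 2 settings. Without each array in turn the count was 1. With culture series as the replicate block it was 11, and with that term the count was 3 without series B, 4 without D, and 5 without A or C. It was 8 to 12 without each array in turn. The protocol comparisons gave 0 calls, but 7 with all 56 arrays, that is, with the array of the bad grid. The replicate block by title number gave 20 genes for series, 9 higher in series D, 1 for time and 0 for protocols, and moved no count by over 1.5 times. Deviations of arrays of 1 title number had a mean correlation of 0.16 (lowest -0.462, over 0.1 for 215 of 373 pairs, -0.0558 between numbers), so not every pair deviated together, and those of 1 series 0.398 (lowest -0.0165, 346 of 360, -0.134). The cause of these changes was not tested. Of the differences of series D from C for 10 genes, none that was called changed sign or lost its call. The deposited z-scores, an alternative chosen after seeing the data, left each of these counts as it was. They are nearly the same within-array score as the one used here, so they could hardly move a count. Signal over background limits the dim genes Col13a1 and Col14a1.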
